A study of Homo sapiens with 8 samples.

Results

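The genes of the contractile actin-myosin machinery and of stress fibres were taken as a list of 39 human genes, picked by name from the 60666 Ensembl gene IDs of the deposited table. All 39 had a single ID in it. By role, 14 of them are smooth-muscle or muscle-enriched genes, 5 give both muscle and non-muscle products, 11 are non-muscle forms, and 9 encode cross-linkers and adhesion anchors. In all, 37 of the 39 reached a mean of 1 CPM (counts scaled to a common library size with trimmed-mean factors) over the 8 libraries and were tested. ACTC1, the cardiac alpha-actin, and MYH11, the smooth-muscle myosin heavy chain, stayed below that level.

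Stress fibres are bundles of actin filaments and non-muscle myosin that are held together by alpha-actinin, filamin and tropomyosin and tied to focal adhesions through talin, vinculin and zyxin. They contract when the regulatory light chain of myosin is phosphorylated, for example by myosin light-chain kinase. Fibroblasts that turn into myofibroblasts add smooth-muscle proteins such as alpha-actin (ACTA2), calponin 1 and transgelin to these bundles, and TGF-β1 is a well-known inducer of that change. Many of these genes are known targets of serum response factor (SRF) and its actin-sensing cofactors, which act through a promoter element called the CArG box.

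The study asked how knockdown of MTHFD2, a mitochondrial enzyme of folate metabolism, alters the transcriptome of lung fibroblasts under fibrotic stimulation. RNA was sequenced in bulk from MRC5, a fibroblast line of human lung. Its cells carried either a hairpin against MTHFD2 (shMTHFD2) or a control hairpin (shMock), each with or without TGF-β1. The 4 groups, of 2 libraries each, were shMTHFD2 with TGF-β1, shMock with TGF-β1, shMTHFD2 control and shMock control. The labels give 4 ng of TGF-β1, with no volume, for 24 h, and repeat that text on the control samples, so groups follow the titles and the treatment field. The titles name only 1 hairpin of each kind, so the effect of losing MTHFD2 and other differences between the lines cannot be told apart. The genotype field of 3 shMTHFD2 samples names MTHFD3, MTHFD4 or MTHFD5, and the extraction text speaks of A549 cells and a hairpin against DUSP23. No label states that replicates came from separate cultures, so the p-values below describe only how far these libraries spread, and that spread may be technical.

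Library totals ran from 18162738 to 22221927 counts. MTHFD2 was at 93.6 and 91.7 CPM in shMTHFD2 with TGF-β1, against 256 and 257 CPM in shMock with TGF-β1, and at 14.9 and 18.7 CPM in shMTHFD2 control, against 58.7 and 57.0 CPM in shMock control. The shMTHFD2 line was thus lower at both states, by 1.47 and 1.79 on the log2 scale, with and without TGF-β1. The summed level of 8 fibroblast markers was 51530 to 52280 CPM in shMTHFD2 with TGF-β1, 49420 to 53860 CPM in shMock with TGF-β1, 30180 to 32490 CPM in shMTHFD2 control and 32990 to 36290 CPM in shMock control. Between the lines the fibroblast sum overlapped with TGF-β1 and was lower in shMTHFD2 without it. COL1A1 was the largest part of that sum in each group, at means of 25459, 24770, 10213 and 11564 CPM in the order above. Singly, 1 of the 8 passed as lower in shMTHFD2 with TGF-β1 (THY1) and 3 without it (THY1, DCN and VIM). None passed as higher, and the shares passing as lower over all tested genes were 8.23% and 8.19%. A list of 8 smooth-muscle and pericyte markers outside the 39 genes summed to 328 to 346, 407 to 421, 269 to 291 and 334 to 376 CPM in the same order of groups, with desmin (DES) at 0 in every library. Of its 7 tested genes 1 passed between the lines at each state, MCAM, at a mean of 136 CPM in shMTHFD2 with TGF-β1, against 213 CPM in shMock with TGF-β1, and 89.3 CPM in shMTHFD2 control, against 158 CPM in shMock control. With TGF-β1 MCAM and MYOCD rose and CSPG4 fell in each line, and the median log2 fold change of the 7 was 0.09 in shMTHFD2 and −0.29 in shMock. Of striated-muscle markers, MYH6, MYH7, TNNI3, MYOD1 and MYOG were at 0 in all 8 libraries. The 5 endothelial markers summed to 40.7 to 43.3, 43.2 to 48.8, 96.6 to 104 and 98.7 to 109.9 CPM, with PECAM1 and CDH5 at 0, and KDR and TEK fell with TGF-β1 in both lines. The 5 macrophage and leukocyte markers summed to 47.5 to 51.1, 53.7 to 58.8, 74.8 to 76.35 and 101 to 106 CPM, with CD3E at 0, and CD68 fell with TGF-β1 in both lines and in shMTHFD2 without it. The 6 epithelial markers summed to 25.2 to 36.95 CPM in all groups. The part of these markers in the results was not tested. In bulk RNA, fewer contractile cells and less contractile RNA per cell cannot be told apart.

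Most of the 37 tested contractile genes fell in shMTHFD2 relative to shMock at each state, and most rose with TGF-β1 in each line. With TGF-β1, 25 of the 37 tested genes fell in shMTHFD2 and none rose (edgeR quasi-likelihood test, Benjamini-Hochberg adjusted p below 0.05), beside 13.1% of all 13493 tested genes that passed, with 8.23% falling and 4.83% rising. The median log2 fold change of the 37 was −0.38, against 0.01 over all tested genes, and single values ran from −1.14 to 0.10. Without TGF-β1, 23 of the 37 fell and none rose, beside 11.4% of all tested genes that passed, with 8.19% falling and 3.25% rising, and the median was −0.35 against −0.01 over all. Of these, 18 fell at both states, which is 18 of 25 and 18 of 23 of each list. Leaving out shMTHFD2 with TGF-β1 replicate 2 brought the count with TGF-β1 to 16, and leaving out shMTHFD2 control replicate 2 brought that without it to 14.

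TGF-β1 raised 27 of the 37 genes in shMTHFD2 and lowered 1, beside 23.8% of all tested genes that passed, with 12.8% rising and 11% falling. It raised 29 of the 37 in shMock and lowered 1, beside 35.4% of all, with 17.3% rising and 18.1% falling. The gene that fell in both lines was MYLK, which encodes myosin light-chain kinase. The median log2 fold change of the 37 was 0.64 in shMTHFD2 and 0.56 in shMock, against −0.01 and −0.02 over all tested genes. In all, 26 genes rose in both lines, 26 of 27 and 26 of 29 of the lists. FLNC and MYL12B were the 2 genes that passed in none of these 4 comparisons. Scaling by library totals alone moved the median of all tested genes to −0.12 in shMTHFD2 and −0.16 in shMock, and on that scale 25 and 27 of the 37 rose and 3 and 4 fell. Together the 39 genes took 3.045 and 2.998% of all counts in shMTHFD2 with TGF-β1, against 3.72 and 3.66% in shMock with TGF-β1, and 2.04 and 1.95% in shMTHFD2 control, against 2.43 and 2.49% in shMock control. The comparisons of TGF-β1 with control and of the lines share libraries, so their values for a gene are given side by side and not related to each other.

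**Figure D1:**
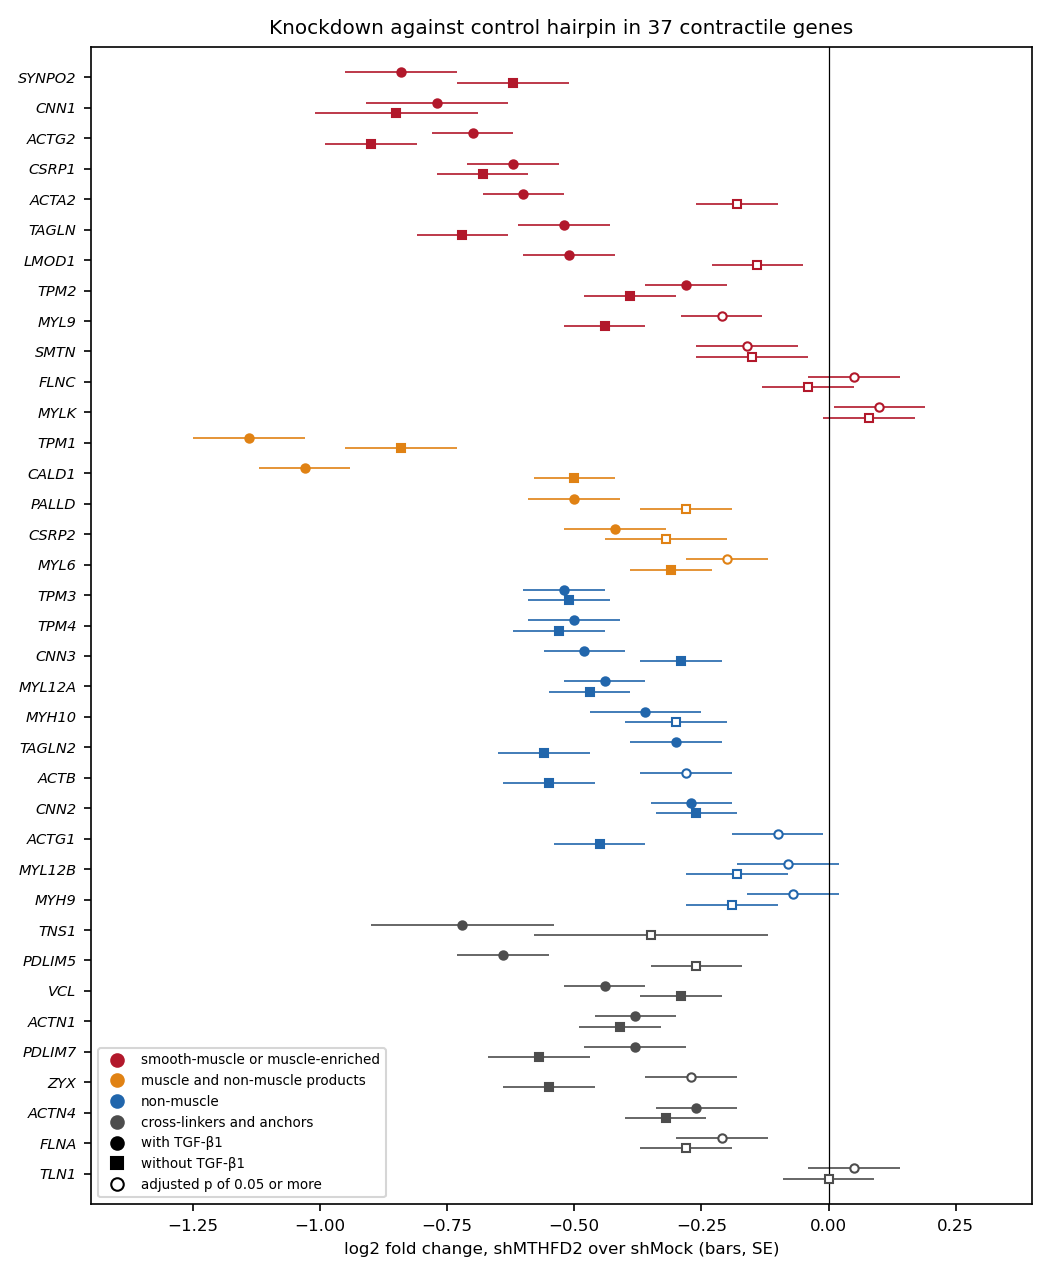
Log2 fold change of shMTHFD2 over shMock (horizontal axis, bars are 1 SE) for the 37 tested genes, grouped by role, with TGF-β1 (circles) and without it (squares); open symbols did not pass the threshold. The filled symbols all lie left of 0, and ACTA2 and LMOD1 are among those filled with TGF-β1 only, ACTB and ACTG1 among those filled without it only.

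Several of these genes carry a CArG box close to a start site, and 5 promoter stretches are shown because the genes downstream of them differ in role and in response. RefSeq promoter windows on GRCh38.p14, from 250 bases before to 50 bases after a start, were found for 35 of the 39 genes, with 70 starts in all; ACTB, TAGLN, MYL9 and MYH11 had none. A CArG box was taken strictly as CCWWWWWWGG, with W for A or T, and searched on both strands. It was in 9 of the 70 windows (12.9%), against 454 of 35116 windows of all genes (1.29%). Boxes with other core letters or outside these windows were not searched for, so a gene without a match may still hold one. The TEAD-type motif CATTCC was in 27.1% of the 70 windows against 14.03% of all, and the SMAD-type motif CAGAC in 58.6% against 45.26%; each can share its end letters with a CArG box. The 9 genes with a box by this strict pattern were ACTC1, ACTG1, ACTG2, ACTN1, CNN2, FLNA, MYLK, SMTN and TPM4, and ACTG2 held 2 boxes. Each stretch below reads 5′ to 3′ on the gene's strand, with the boxes in capitals; a match is a description of the letters only.
ACTG2, enteric smooth-muscle gamma-actin, chr2:73892838-73893004, plus strand: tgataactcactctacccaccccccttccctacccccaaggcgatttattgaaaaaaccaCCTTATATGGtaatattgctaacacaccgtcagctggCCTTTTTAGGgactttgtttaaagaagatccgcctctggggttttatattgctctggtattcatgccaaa
ACTG1, cytoplasmic gamma-actin, chr17:81512824-81512953, minus strand: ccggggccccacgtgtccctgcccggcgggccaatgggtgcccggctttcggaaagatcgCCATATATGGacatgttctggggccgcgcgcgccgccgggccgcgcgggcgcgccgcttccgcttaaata
CNN2, calponin 2, chr19:1026459-1026588, plus strand: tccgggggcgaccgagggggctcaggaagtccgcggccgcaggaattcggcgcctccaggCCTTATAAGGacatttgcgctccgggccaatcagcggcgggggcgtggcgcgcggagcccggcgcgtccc
SMTN, smoothelin, chr22:31084892-31084995, plus strand: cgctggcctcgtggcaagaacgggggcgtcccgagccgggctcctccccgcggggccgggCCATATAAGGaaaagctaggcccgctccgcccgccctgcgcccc
MYLK, myosin light-chain kinase, chr3:123620573-123620702, minus strand: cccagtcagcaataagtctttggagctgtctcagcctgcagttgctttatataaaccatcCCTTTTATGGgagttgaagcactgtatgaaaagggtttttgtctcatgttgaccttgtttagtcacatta
The boxes begin 110 and 73 bases before the start in ACTG2, 94 in ACTG1, 89 in CNN2, 44 in SMTN and 94 in MYLK. By GENCODE spans, the CNN2 stretch lies at the gene's outer start (chr19:1026581-1039068), and the others belong to starts inside the gene. Those spans are chr2:73892314-73919865 for ACTG2, chr17:81509971-81523847 for ACTG1, chr22:31064105-31104757 for SMTN and chr3:123610049-123884331 for MYLK, whose stretch is near the 3′ end. In shMock, ACTG2, ACTG1, CNN2, SMTN, ACTN1, FLNA and TPM4 rose with TGF-β1, MYLK alone fell, and ACTC1 was not tested. Counts per gene do not show which start the MYLK RNA came from, so its fall cannot be tied to this stretch.

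Among the actins, the smooth-muscle forms had the larger TGF-β1 responses and the cytoplasmic forms the higher levels. ACTA2, smooth-muscle alpha-actin and the usual marker of myofibroblasts, was at 859 and 842 CPM in shMTHFD2 with TGF-β1, against 1312 and 1275 CPM in shMock with TGF-β1. It was at 93.7 and 87.8 CPM in shMTHFD2 control, against 101 and 104 CPM in shMock control. The 2 lines did not overlap at either state, and the gap was wide only under TGF-β1. There ACTA2 fell by 0.60 ± 0.08 (SE) on the log2 scale in shMTHFD2 (adjusted p = 0.000146), whereas without TGF-β1 the log2 fold change was −0.18 ± 0.08 and did not pass (adjusted p = 0.184). TGF-β1 raised ACTA2 9.36-fold in shMTHFD2 (adjusted p = 1.08e-12) and 12.6-fold in shMock (adjusted p = 3.16e-13).

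ACTG2 differed from ACTA2 in that it fell in shMTHFD2 at both states. It was at 121 and 132 CPM in shMTHFD2 with TGF-β1, against 210.1 and 200.4 CPM in shMock with TGF-β1, and at 33.4 and 36.4 CPM in shMTHFD2 control, against 67.8 and 62.6 CPM in shMock control. No groups overlapped, and the log2 fold changes of the lines were −0.70 ± 0.08 with TGF-β1 (adjusted p = 8.98e-05) and −0.90 ± 0.09 without it (adjusted p = 1.65e-05). The TGF-β1 responses were 3.63-fold in shMTHFD2 and 3.15-fold in shMock.

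The cytoplasmic actins ACTB and ACTG1, which build the filaments of every non-muscle cell, passed in the line comparison only without TGF-β1. ACTB was at 4363 and 4483 CPM in shMTHFD2 with TGF-β1, against 5777 and 5000 CPM in shMock with TGF-β1, and at 2867 and 2717 CPM in shMTHFD2 control, against 3990 and 4202 CPM in shMock control. ACTG1 was at 3739 and 3618 CPM in shMTHFD2 with TGF-β1, against 4026 and 3859 CPM in shMock with TGF-β1, and at 2101 and 1854 CPM in shMTHFD2 control, against 2651 and 2756 CPM in shMock control. The shMTHFD2 libraries were below the shMock libraries throughout, by a small margin for ACTG1 under TGF-β1. Without TGF-β1 the log2 fold changes were −0.55 ± 0.09 for ACTB (adjusted p = 0.00104) and −0.45 ± 0.09 for ACTG1 (adjusted p = 0.00349). With TGF-β1 they were −0.28 ± 0.09 (adjusted p = 0.0509) and −0.10 ± 0.09 (adjusted p = 0.505). The ACTB value under TGF-β1 passed in 9 of 19 alternatives, where its adjusted p ran from 0.00362 to 0.298, and without shMock with TGF-β1 replicate 2 it was 0.0141. Its log2 fold change was −0.17 without shMock with TGF-β1 replicate 1. The ACTG1 call without TGF-β1 was lost without shMTHFD2 control replicate 2 (adjusted p = 0.0813) and without shMock control replicate 2 (adjusted p = 0.0559), over a range of 3.07e-07 to 0.0813.

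Per kilobase of the principal transcript, the actins kept the order ACTB, ACTG1, ACTA2, ACTG2 in all 4 groups. ACTB averaged 2441, 2974, 1541 and 2260 CPM per kilobase in shMTHFD2 with TGF-β1, shMock with TGF-β1, shMTHFD2 control and shMock control. ACTA2 averaged 630.4, 959, 67.3 and 76.1 CPM per kilobase in the same groups. ACTC1 was at 1.02 and 0.863 CPM in shMTHFD2 with TGF-β1, 0.958 and 0.63 CPM in shMock with TGF-β1, 0.185 and 0.309 CPM in shMTHFD2 control and 0.224 and 0.0984 CPM in shMock control. The lines overlapped at both states, and each TGF-β1 library lay above each control library.

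**Figure D2:**
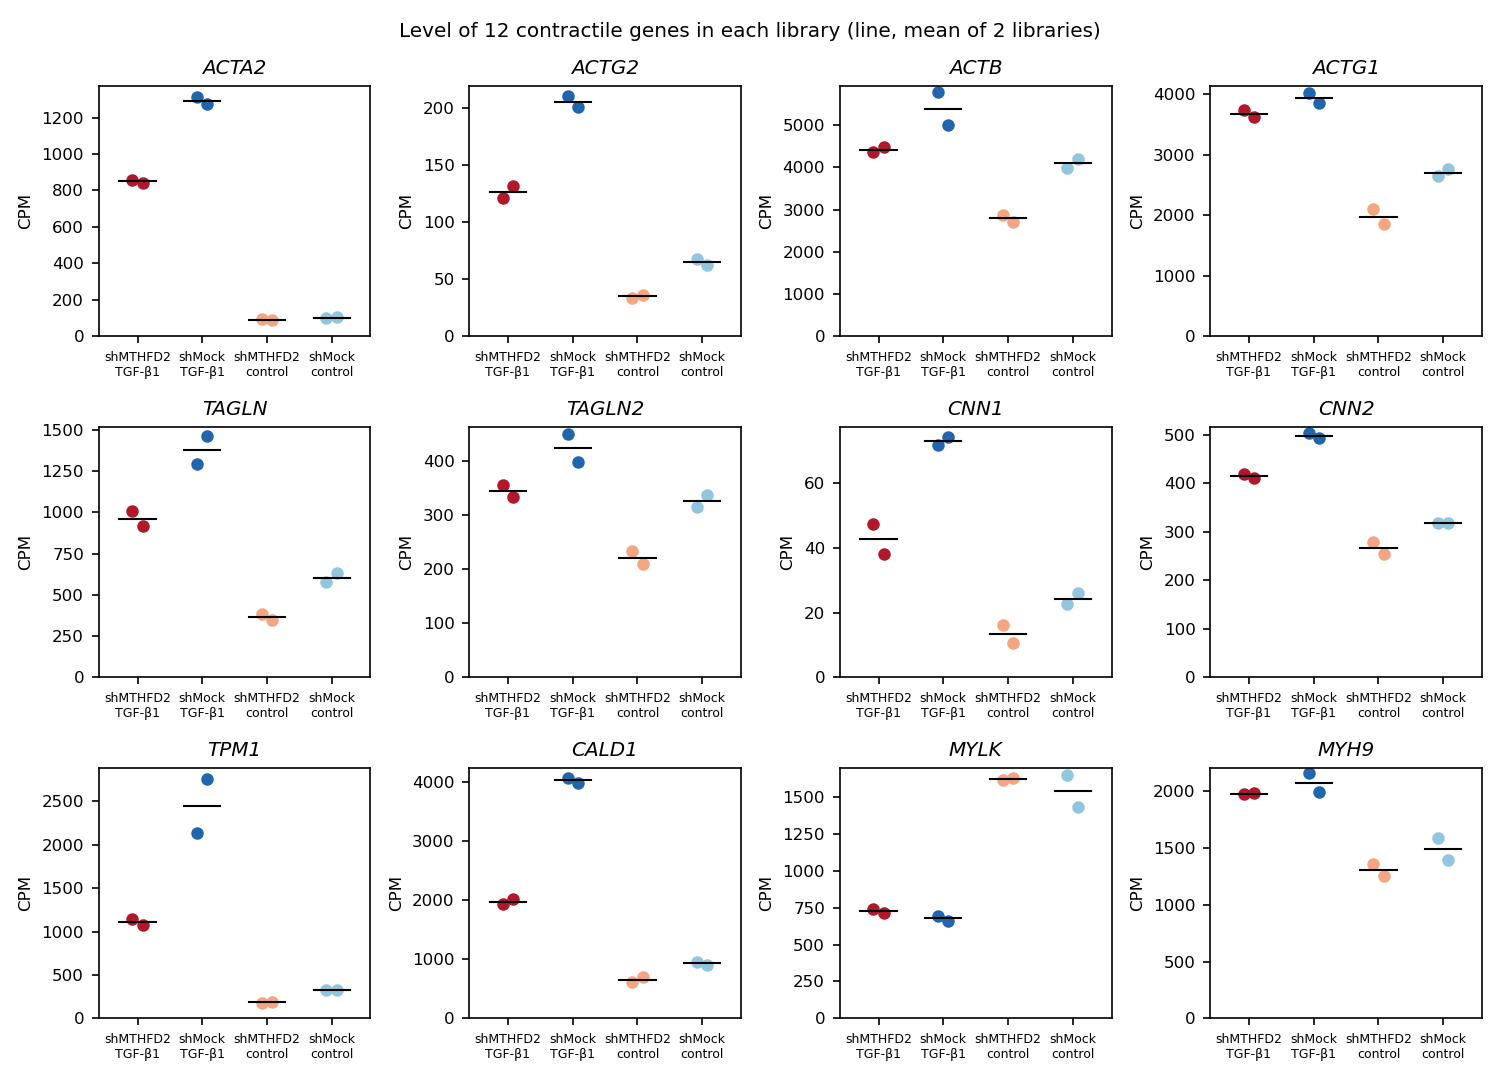
Level of 12 contractile genes (CPM, vertical axes start at 0) in each library of the 4 groups, with a line at the mean of 2 libraries. ACTA2 in the shMTHFD2 and shMock controls lies at 87.8 to 104 CPM, with the TGF-β1 libraries at 842 to 1312 CPM, and MYLK is the gene whose TGF-β1 libraries lie below the controls.

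Calponins and transgelins bind along actin filaments, and in both families the smooth-muscle form had larger fold changes than its non-muscle relatives. CNN1, calponin 1, which dampens myosin ATPase activity in smooth muscle, was at 47.4 and 38.1 CPM in shMTHFD2 with TGF-β1, against 71.9 and 74.1 CPM in shMock with TGF-β1, and at 16.2 and 10.7 CPM in shMTHFD2 control, against 22.7 and 25.9 CPM in shMock control. It fell in shMTHFD2 by 0.77 ± 0.14 with TGF-β1 (adjusted p = 0.00257) and by 0.85 ± 0.16 without it (adjusted p = 0.0032), on the log2 scale. TAGLN, transgelin or SM22, an early smooth-muscle marker, was at 1007 and 916 CPM in shMTHFD2 with TGF-β1, against 1294 and 1461 CPM in shMock with TGF-β1, and at 384 and 348 CPM in shMTHFD2 control, against 575 and 630 CPM in shMock control. Its log2 fold changes were −0.52 ± 0.09 (adjusted p = 0.00194) and −0.72 ± 0.09 (adjusted p = 0.000165). All groups of both genes stood apart, and TGF-β1 raised CNN1 3.16-fold in shMTHFD2 and 3.0-fold in shMock, and TAGLN 2.63-fold and 2.29-fold.

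The non-muscle calponins CNN2 and CNN3 and the non-muscle transgelin TAGLN2 fell by less. With TGF-β1 the log2 fold changes in shMTHFD2 were −0.27 ± 0.08 for CNN2 (adjusted p = 0.036), −0.48 ± 0.08 for CNN3 (adjusted p = 0.00158) and −0.30 ± 0.09 for TAGLN2 (adjusted p = 0.0351). Without it they were −0.26 ± 0.08 (adjusted p = 0.0476), −0.29 ± 0.08 (adjusted p = 0.0347) and −0.56 ± 0.09 (adjusted p = 0.000837). TGF-β1 raised CNN2 1.56-fold in shMTHFD2 and 1.57-fold in shMock, and TAGLN2 1.56-fold and 1.30-fold. CNN3 rose in shMock, by 0.40 ± 0.08 (adjusted p = 0.00157), and its value in shMTHFD2 was 0.21 ± 0.08 (adjusted p = 0.0844), on the log2 scale. Several of these calls lay close to the threshold. The TAGLN2 call with TGF-β1 was lost with library totals alone (adjusted p = 0.112). So was the CNN3 call at rest (adjusted p = 0.0908), which was also lost with upper-quartile factors (adjusted p = 0.0539). The CNN2 call with TGF-β1 was lost without any 1 of the 4 TGF-β1 libraries or shMock control replicate 1, with an adjusted p of up to 0.169 over a range of 0.00206 to 0.169, while its log2 fold change without each of these was between −0.29 and −0.24. With library totals alone it was also lost, at −0.18 (adjusted p = 0.131). At rest it was lost in 13 of 19 alternatives, 7 of them other scalings, filters, models or samples and 6 of them without any 1 of the 4 control libraries or either shMTHFD2 library with TGF-β1, over a range of 0.0126 to 0.386. Without shMTHFD2 control replicate 2 its log2 fold change was −0.17. The CNN3 call at rest was lost without any 1 of the 4 control libraries or shMTHFD2 with TGF-β1 replicate 1, over a range of 0.00829 to 0.306, and the TAGLN2 call with TGF-β1 without either shMTHFD2 library or shMock replicate 1 of that state, over a range of 0.00173 to 0.238.

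Tropomyosins wind along the actin filament and govern its access to myosin, and caldesmon (CALD1) bridges actin, tropomyosin and myosin. All 4 tropomyosin genes and CALD1 fell in shMTHFD2 at both states, and TPM1 and CALD1 had the 2 lowest log2 fold changes of the 37 genes with TGF-β1. TPM1 was at 1139 and 1080 CPM in shMTHFD2 with TGF-β1, against 2131 and 2755 CPM in shMock with TGF-β1, and at 179 and 191 CPM in shMTHFD2 control, against 332 and 330.4 CPM in shMock control. The shMTHFD2 level was below the shMock level at both states, and the shMock libraries with TGF-β1 were the most widely spread. TPM1 fell by 1.14 ± 0.11 with TGF-β1 (adjusted p = 1.23e-05) and by 0.84 ± 0.11 without it (adjusted p = 0.000141), on the log2 scale, and rose 6.0-fold in shMTHFD2 and 7.38-fold in shMock with TGF-β1.

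CALD1 was at 1937 and 2019 CPM in shMTHFD2 with TGF-β1, against 4073 and 3995 CPM in shMock with TGF-β1. It was at 620.4 and 695 CPM in shMTHFD2 control, against 949.8 and 912 CPM in shMock control. The gap between the lines was 2.04-fold with TGF-β1 and 1.42-fold without it, with log2 fold changes of −1.03 ± 0.09 (adjusted p = 6.33e-06) and −0.50 ± 0.08 (adjusted p = 0.00131). TGF-β1 raised CALD1 3.01-fold in shMTHFD2 and 4.33-fold in shMock. Both TPM1 and CALD1 make muscle and non-muscle proteins by alternative splicing, which counts per gene do not separate.

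The other tropomyosins changed less. TPM2, whose products include the beta-tropomyosin of muscle, had log2 fold changes of −0.28 ± 0.08 with TGF-β1 (adjusted p = 0.0434) and −0.39 ± 0.09 without it (adjusted p = 0.00738). Its call with TGF-β1 was lost with library totals alone (adjusted p = 0.144) and with upper-quartile factors (adjusted p = 0.0587). TPM3 and TPM4, the main non-muscle genes, fell by 0.52 ± 0.08 and 0.50 ± 0.09 with TGF-β1 and by 0.51 ± 0.08 and 0.53 ± 0.09 without it. TGF-β1 raised TPM4 1.60-fold in shMTHFD2 and 1.57-fold in shMock. TPM3 was at 222 and 239.8 CPM in shMTHFD2 with TGF-β1, against 230 and 244 CPM in shMTHFD2 control, and at 339 and 324 CPM in shMock with TGF-β1, against 332 and 344 CPM in shMock control. Its libraries thus separated by line and overlapped between TGF-β1 and control in both lines (adjusted p = 0.766 in shMTHFD2 and 0.799 in shMock). The TPM2 call with TGF-β1 was lost without any 1 of the 4 TGF-β1 libraries or shMock control replicate 1 (adjusted p of up to 0.273, over a range of 0.00327 to 0.273). At rest it was lost without replicate 2 of shMTHFD2 control (adjusted p = 0.126) or of shMock control (adjusted p = 0.0972), over a range of 3.29e-05 to 0.126.

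Calls among the myosin genes were mixed, both within the heavy chains and within the light chains. The non-muscle heavy chain MYH9, the main motor of stress fibres, was at 1973 and 1982 CPM in shMTHFD2 with TGF-β1, against 2160 and 1990 CPM in shMock with TGF-β1, and at 1359 and 1254 CPM in shMTHFD2 control, against 1593 and 1394 CPM in shMock control. The shMTHFD2 libraries were just below the shMock libraries at each state, and the log2 fold changes of −0.07 ± 0.09 and −0.19 ± 0.09 did not pass (adjusted p = 0.676 and 0.198). TGF-β1 raised MYH9 1.51-fold in shMTHFD2 and 1.39-fold in shMock. MYH10, a second non-muscle heavy chain, fell in shMTHFD2 with TGF-β1 by 0.36 ± 0.11 on the log2 scale (adjusted p = 0.0402), a call that was lost without either shMTHFD2 library with TGF-β1 (adjusted p = 0.195 and 0.081) or shMock with TGF-β1 replicate 1 (adjusted p = 0.4), over a range of 0.00627 to 0.4. Its log2 fold change was −0.17 without that shMock library, and −0.32 and −0.41 without the shMTHFD2 libraries. The MYH10 call was also lost with library totals alone (adjusted p = 0.0931) and with another filter on low counts (adjusted p = 0.0511). A fit of only the 2 groups compared lost it too (adjusted p = 0.0557). MYH11 had 14 counts over all 8 libraries.

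Of the 4 light chains, MYL12A fell in shMTHFD2 at both states, MYL9 and MYL6 at rest, and MYL12B at neither. MYL12A, a non-muscle regulatory chain, fell by 0.44 ± 0.08 with TGF-β1 (adjusted p = 0.00232) and by 0.47 ± 0.08 without it (adjusted p = 0.00154). Its near-identical neighbour MYL12B had log2 fold changes of −0.08 ± 0.10 and −0.18 ± 0.10 and did not pass, and reads of the pair may have been shared out between them. MYL9, the regulatory chain enriched in smooth muscle, was at 813 and 814 CPM in shMTHFD2 with TGF-β1, against 993 and 884 CPM in shMock with TGF-β1, and at 550.3 and 519 CPM in shMTHFD2 control, against 727 and 727 CPM in shMock control. It passed without TGF-β1, with a log2 fold change of −0.44 ± 0.08 (adjusted p = 0.00265), and not with it, where the value was −0.21 ± 0.08 (adjusted p = 0.116). MYL6, the essential light chain, did likewise, with −0.31 ± 0.08 without TGF-β1 (adjusted p = 0.0296) and −0.20 ± 0.08 with it (adjusted p = 0.13). Scaling by library totals alone lost the MYL6 call (adjusted p = 0.0786). Without shMTHFD2 control replicate 2 the adjusted p of MYL9 was 0.05, over a range of 8.04e-07 to 0.05, and with TGF-β1 MYL9 passed without shMock with TGF-β1 replicate 2 (adjusted p = 0.0456) and with GC and length offsets, at −0.37 (adjusted p = 0.00912), over a range of 0.00912 to 0.488. The MYL6 call was lost without either shMTHFD2 control library (adjusted p = 0.115 and 0.172), shMTHFD2 with TGF-β1 replicate 1 (0.0642) or shMock control replicate 2 (0.349), over a range of 0.00179 to 0.349.

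MYLK ran against the other muscle-enriched genes. It was at 743 and 712 CPM in shMTHFD2 with TGF-β1, against 1616 and 1630 CPM in shMTHFD2 control, and at 696 and 659.8 CPM in shMock with TGF-β1, against 1649 and 1432 CPM in shMock control. Libraries with TGF-β1 lay below every control library, and the fall was 2.23-fold in shMTHFD2 (adjusted p = 8.04e-08) and 2.27-fold in shMock (adjusted p = 5.41e-08). Between the lines its log2 fold change was 0.10 ± 0.09 with TGF-β1 (adjusted p = 0.493) and 0.08 ± 0.09 without it (adjusted p = 0.651). Its gene makes long, short and telokin products, which gene counts do not separate.

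**Figure D3:**
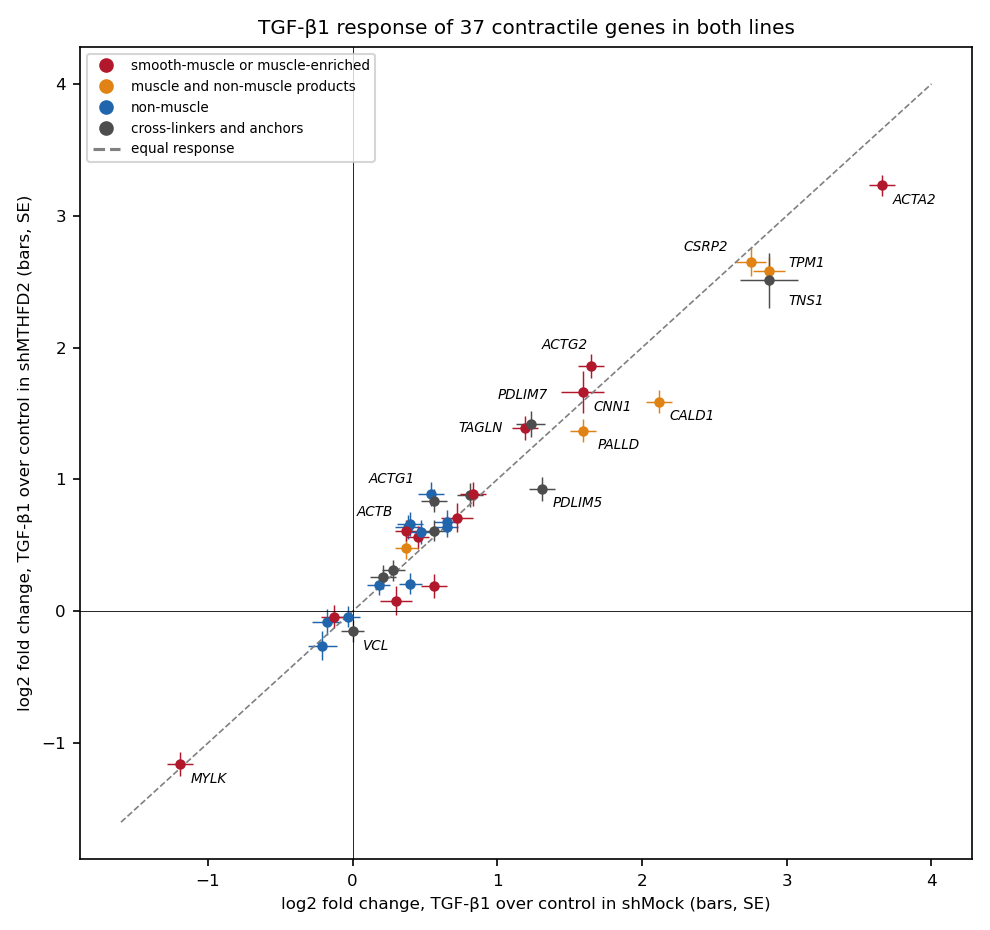
Log2 fold change of TGF-β1 over control for the 37 tested genes in shMTHFD2 (vertical axis) against shMock (horizontal axis), with SE bars and a dashed line of equal response. ACTA2 lies highest, at 3.23 in shMTHFD2 and 3.66 in shMock, CALD1 lies furthest below the line, and MYLK lies lowest.

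Of the remaining muscle-enriched genes, SYNPO2 and CSRP1 fell in shMTHFD2 at both states, LMOD1 under TGF-β1, and SMTN and FLNC passed at neither. SYNPO2, a Z-disc and stress fibre protein, was at 22.2 and 22.3 CPM in shMTHFD2 with TGF-β1, against 39.1 and 40.8 CPM in shMock with TGF-β1, and at 19.5 and 22.7 CPM in shMTHFD2 control, against 32.6 and 32.1 CPM in shMock control. The libraries separated by line more than by TGF-β1, and its log2 fold changes between the lines were −0.84 ± 0.11 (adjusted p = 0.000183) and −0.62 ± 0.11 (adjusted p = 0.00188). Its rise with TGF-β1 in shMock, 0.30 ± 0.11 (adjusted p = 0.0374), was lost without any 1 of the 4 shMock libraries (highest adjusted p of those 0.135, over a range of 0.0216 to 0.452). The value itself was smaller with GC and length offsets, at 0.10 (adjusted p = 0.445), and with library totals, at 0.17 (adjusted p = 0.234). CSRP1, a LIM protein of actin bundles, fell by 0.62 ± 0.09 with TGF-β1 and by 0.68 ± 0.09 without it.

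LMOD1, leiomodin 1, which seeds actin filaments in smooth muscle, was at 53.4 and 57.7 CPM in shMTHFD2 with TGF-β1, against 82.0 and 75.7 CPM in shMock with TGF-β1, and at 47.5 and 49.7 CPM in shMTHFD2 control, against 53.8 and 53.3 CPM in shMock control. The shMock libraries with TGF-β1 stood above all others. LMOD1 fell in shMTHFD2 by 0.51 ± 0.09 with TGF-β1 (adjusted p = 0.00131), and its value without it was −0.14 ± 0.09 (adjusted p = 0.346). SMTN, a filament-binding protein of contractile smooth muscle, rose 1.64-fold with TGF-β1 in each line, and its lines overlapped at both states (log2 fold changes of −0.16 ± 0.10 and −0.15 ± 0.11, adjusted p = 0.356 and 0.423). With GC and length offsets SMTN passed between the lines with TGF-β1, at −0.33 (adjusted p = 0.0184, over a range of 0.0139 to 0.834). FLNC, the muscle filamin, was between 324 and 395 CPM in all 8 libraries.

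CSRP2 and PALLD, which serve both muscle and non-muscle cells, rose strongly with TGF-β1. CSRP2, a LIM protein of smooth muscle and of activated mesenchymal cells, was at 165 and 141 CPM in shMTHFD2 with TGF-β1, against 24.2 and 24.5 CPM in shMTHFD2 control, and at 209.7 and 199 CPM in shMock with TGF-β1, against 26.9 and 34.2 CPM in shMock control. These are rises of 6.28-fold and 6.71-fold. PALLD, palladin, a scaffold of stress fibre dense bodies, rose 2.59-fold in shMTHFD2 and 3.01-fold in shMock. Both fell in shMTHFD2 under TGF-β1, by 0.42 ± 0.10 (adjusted p = 0.0143) and 0.50 ± 0.09 (adjusted p = 0.00194) on the log2 scale. Without TGF-β1 the values were −0.32 ± 0.12 for CSRP2 (adjusted p = 0.0955) and −0.28 ± 0.09 for PALLD (adjusted p = 0.0566). Library totals alone lost the CSRP2 call with TGF-β1 (adjusted p = 0.0521). A replicate block with GC and length offsets did so too (adjusted p = 0.0507). The CSRP2 call was lost without shMTHFD2 with TGF-β1 replicate 2 (adjusted p = 0.14) and without shMock with TGF-β1 replicate 1 (adjusted p = 0.095), over a range of 0.000176 to 0.14. Without TGF-β1, CSRP2 passed without shMock control replicate 1 (adjusted p = 0.0272, over a range of 0.0272 to 0.706), and PALLD passed without either shMock library with TGF-β1 (adjusted p = 0.0303 and 0.0284, over a range of 0.00656 to 0.258).

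Among the 9 cross-linkers and anchors, 6 fell in shMTHFD2 with TGF-β1 and 5 without it, beside 8.23% and 8.19% of all tested genes, and 8 rose with TGF-β1 in shMTHFD2 and 7 in shMock, beside 12.8% and 17.3% of all. The alpha-actinins, which cross-link the bundles, fell by small amounts: ACTN1 by 0.38 ± 0.08 with TGF-β1 (adjusted p = 0.00587) and 0.41 ± 0.08 without it (adjusted p = 0.00381), and ACTN4 by 0.26 ± 0.08 (adjusted p = 0.0436) and 0.32 ± 0.08 (adjusted p = 0.0193). FLNA, the filamin of non-muscle cells, did not pass between the lines (log2 fold changes of −0.21 ± 0.09 and −0.28 ± 0.09, adjusted p = 0.135 and 0.0535) and rose 1.84-fold in shMTHFD2 and 1.76-fold in shMock with TGF-β1. With TGF-β1 FLNA passed between the lines with GC and length offsets, at −0.41 (adjusted p = 0.00452), and by DESeq2, at −0.22 (adjusted p = 0.0346), over a range of 0.00452 to 0.393. PDLIM5 and PDLIM7, adaptors that sit on alpha-actinin and tropomyosin, rose 1.90-fold and 2.68-fold with TGF-β1 in shMTHFD2 and 2.48-fold and 2.35-fold in shMock. PDLIM5 fell in shMTHFD2 by 0.64 ± 0.09 with TGF-β1 (adjusted p = 0.00021), with −0.26 ± 0.09 without it (adjusted p = 0.0844). PDLIM7 fell by 0.38 ± 0.10 with TGF-β1 (adjusted p = 0.0206) and by 0.57 ± 0.10 without it (adjusted p = 0.00183). Library totals alone lost the PDLIM7 call with TGF-β1 (adjusted p = 0.0668). The ACTN1 calls were lost without shMTHFD2 with TGF-β1 replicate 2 (adjusted p = 0.0616) and, at rest, without shMTHFD2 control replicate 2 (adjusted p = 0.073), each the highest value over the alternatives. The ACTN4 call with TGF-β1 was lost in 10 of 19 alternatives, among them those without either shMTHFD2 library with TGF-β1, shMock with TGF-β1 replicate 1 or either shMock control library, over a range of 0.00278 to 0.256. At rest the ACTN4 call was lost without shMTHFD2 control replicate 2 or either shMock control library, over a range of 0.00158 to 0.194, and FLNA passed there without either shMock library with TGF-β1 (adjusted p = 0.037 and 0.036, over a range of 0.00655 to 0.358). The PDLIM7 call with TGF-β1 was lost without replicate 2 of shMTHFD2 (adjusted p = 0.142) or of shMock (adjusted p = 0.113) at that state, over a range of 7.53e-05 to 0.142.

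At the adhesions, tensin 1 (TNS1), which ties actin to integrins in long-lived adhesions, had the largest TGF-β1 fold changes of the 9 anchors. It was at 16.8 and 13.7 CPM in shMTHFD2 with TGF-β1, against 2.54 and 2.79 CPM in shMTHFD2 control, and at 25.4 and 24.6 CPM in shMock with TGF-β1, against 4.08 and 2.66 CPM in shMock control. TGF-β1 raised it 5.71-fold in shMTHFD2 and 7.36-fold in shMock. Under TGF-β1 it fell in shMTHFD2 by 0.72 ± 0.18 (adjusted p = 0.0149), a call lost without shMTHFD2 with TGF-β1 replicate 2 (adjusted p = 0.116) or either shMock library with TGF-β1 (adjusted p = 0.0975 and 0.0521), over a range of 0.00075 to 0.116. Vinculin (VCL), the tension-bearing linker between talin and actin, fell by 0.44 ± 0.08 (adjusted p = 0.00273) with TGF-β1 and by 0.29 ± 0.08 without it (adjusted p = 0.034), and its log2 fold changes with TGF-β1 were −0.15 ± 0.08 in shMTHFD2 and 0.00 ± 0.08 in shMock (adjusted p = 0.231 and 0.98). Zyxin (ZYX), a sensor of fibre strain, fell without TGF-β1 by 0.55 ± 0.09 (adjusted p = 0.00138), with −0.27 ± 0.09 under it (adjusted p = 0.0745). Under TGF-β1 ZYX passed without either shMTHFD2 control library (adjusted p = 0.0448 and 0.045) or shMock with TGF-β1 replicate 2 (adjusted p = 0.0391), and with GC and length offsets, at −0.45 (adjusted p = 0.00495), over a range of 0.00495 to 0.383. Talin (TLN1), the integrin activator, differed by 0.05 ± 0.09 and 0.00 ± 0.09 between the lines, and those libraries overlapped. Scaling by library totals alone lost the VCL call without TGF-β1 (adjusted p = 0.0709). The VCL call without TGF-β1 was lost without any 1 of the 4 control libraries or either shMTHFD2 library with TGF-β1, with an adjusted p of up to 0.214 without shMock control replicate 1, over a range of 0.00325 to 0.214. The small TLN1 rise with TGF-β1 in shMTHFD2 (0.26 ± 0.09, adjusted p = 0.0495) was lost in 11 of 19 alternatives, among them those without any 1 of the 4 shMTHFD2 libraries (highest adjusted p 0.235) or shMock control replicate 2 (0.0718), over a range of 0.0185 to 0.235.

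By role, the shares that fell in shMTHFD2 with TGF-β1 were 8 of 12 tested muscle-enriched genes (median log2 fold change −0.51), 4 of 5 with both kinds of product (−0.50), 7 of 11 non-muscle genes (−0.30) and 6 of 9 cross-linkers and anchors (−0.38), beside 8.23% of all tested genes. Without TGF-β1 they were 7 of 12 (−0.42), 3 of 5 (−0.32), 8 of 11 (−0.45) and 5 of 9 (−0.32), beside 8.19% of all. The rises with TGF-β1 were 8 of 12 in shMTHFD2 and 10 of 12 in shMock for the muscle-enriched genes, 5 of 5 in each line for those with both kinds of product, and 6 of 11 in shMTHFD2 and 7 of 11 in shMock for the non-muscle genes, beside 12.8% and 17.3% of all tested genes. The median TGF-β1 responses of these roles were 0.66 and 0.64, 1.59 and 2.12, and 0.60 and 0.40 on the log2 scale, with shMTHFD2 given before shMock. The roles were not tested against each other.

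Whether the TGF-β1 response differed between the lines was tested as an interaction, the log2 response in shMTHFD2 minus that in shMock. None of the 37 genes passed, beside 0.0889% of all tested genes (0.0371% higher and 0.0519% lower), and 6 of the 37 (16.2%) had an unadjusted p under 0.05, against 12.7% of all tested genes. Those were ACTA2, ACTG1, CALD1, ZYX, PDLIM5 and LMOD1, named after their values were seen. CALD1 had −0.53 ± 0.12 (adjusted p = 0.123) and ACTA2 −0.43 ± 0.11 (adjusted p = 0.159), while ACTG1 had 0.35 ± 0.12 (adjusted p = 0.278). DESeq2 called 2 of the 37, CALD1 (adjusted p = 0.000207) and ACTA2 (adjusted p = 0.00486), and limma-voom called none. Without a filter on low counts edgeR called the same genes, with adjusted p-values of 0.00152 and 0.0437, and CALD1 passed without shMTHFD2 control replicate 1 (adjusted p = 0.0329). Over 18 alternatives the adjusted p ran from 0.000207 to 0.54 for CALD1 and from 0.00486 to 0.377 for ACTA2. The differences between lines seen at one state and not at the other, for ACTA2, LMOD1, ACTB, ACTG1, MYL9, ZYX and others, therefore did not pass as differences between states in this fit.

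Ratios within a library compare a muscle-enriched gene, or TPM1 with both kinds of product, with a non-muscle relative. They need no scaling between libraries and are given as values with no test. The log2 ratio of ACTA2 to ACTB counts was −2.34 and −2.41 in shMTHFD2 with TGF-β1, against −2.14 and −1.97 in shMock with TGF-β1, and −4.93 and −4.95 in shMTHFD2 control, against −5.30 and −5.33 in shMock control. The ratio was thus lower in shMTHFD2 under TGF-β1, by 0.32, and higher at rest, by 0.38, with no overlap of the lines at either state. The ratio of ACTG2 to ACTG1 was lower in shMTHFD2 at both states, with differences of −0.60 with TGF-β1 and −0.45 without it, and so was that of CNN1 to CNN2, with −0.52 and −0.62. TAGLN to TAGLN2 differed by −0.22 and −0.16, and TPM1 to TPM3 by −0.60 and −0.33. MYL9 to MYL12A differed by 0.24 and 0.02, and MYL9 to MYL12B by −0.12 and −0.26. The lines overlapped for MYL9 to MYL12A without TGF-β1 and for MYL9 to MYL12B with it. The ratios of TPM2 to TPM4 (0.22 and 0.13) and of FLNC to FLNA (0.26 and 0.24) were higher in shMTHFD2. With TGF-β1 the ACTA2 to ACTB ratio was 2.56 higher in shMTHFD2 and 3.26 higher in shMock, whereas that of FLNC to FLNA was 0.92 and 0.94 lower, on the log2 scale.

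**Figure D4:**
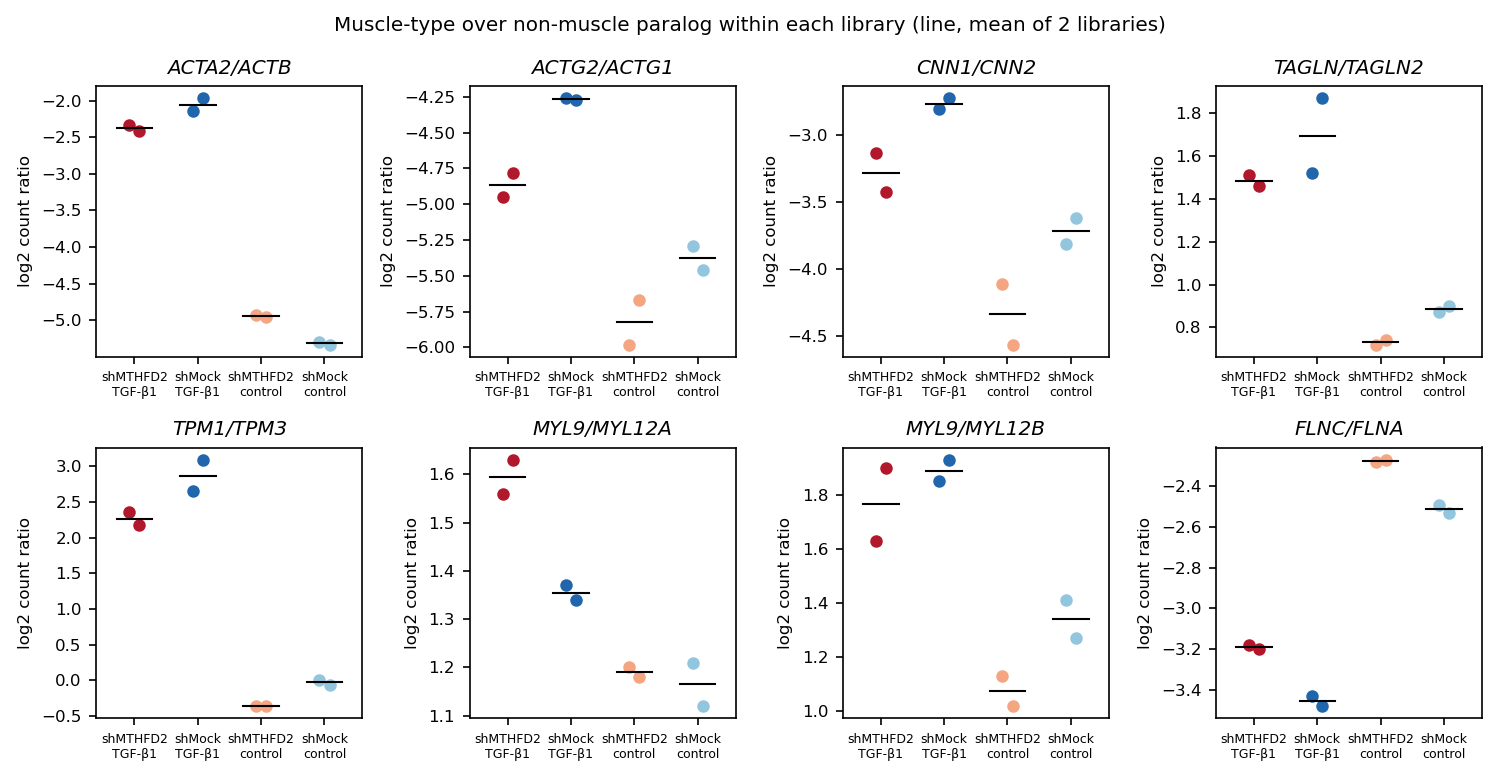
Log2 ratio of the counts of a muscle-type gene, or of TPM1, to those of a non-muscle relative within each library, for 8 pairs. The line is at the mean of 2 libraries, and the vertical axes differ and do not start at 0. In the ACTA2/ACTB panel shMTHFD2 lies below shMock with TGF-β1 (means of −2.38 and −2.05) and above it without (means of −4.94 and −5.32).

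Other genes of the pathway were counted by lists of their own. Of 26 genes of actin assembly, 9 fell in shMTHFD2 with TGF-β1 and 7 without it, beside 8.23% and 8.19% of all tested genes. TMSB4X, the thymosin that sequesters actin monomers, had the lowest value at both states (−0.94 ± 0.08 and −1.18 ± 0.08, adjusted p = 6.67e-06 and 2.43e-06). TMSB4X was at 358 and 336 CPM in shMTHFD2 with TGF-β1, against 650.1 and 685 CPM in shMock with TGF-β1, and at 314 and 307 CPM in shMTHFD2 control, against 676 and 736 CPM in shMock control. Beside the same shares of all tested genes, 12 and 10 of 23 tested adhesion linkers fell. They were led by the kindlin gene FERMT2 with TGF-β1 (−0.70 ± 0.07, adjusted p = 3.52e-05) and by the LIM gene FHL2 without it (−0.79 ± 0.10, adjusted p = 0.000175).

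The same lists were mixed in their response to TGF-β1. Over all tested genes, 12.8% rose and 11% fell in shMTHFD2, and 17.3% rose and 18.1% fell in shMock. Of the 26 assembly genes 9 rose and 5 fell in shMTHFD2, and 8 rose and 4 fell in shMock. Of the 23 linkers 11 rose and 4 fell in shMTHFD2, and 15 rose and 3 fell in shMock, led by LIMS1, the adaptor PINCH (2.01 ± 0.08 and 2.22 ± 0.08 on the log2 scale). FHL1, a LIM protein of muscle, fell in both lines, by 0.83 ± 0.07 in shMTHFD2 and 0.93 ± 0.07 in shMock.

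SRF and its cofactors were tested as 4 genes. SRF was at 75.5 and 80.4 CPM in shMTHFD2 with TGF-β1, against 93.8 and 92.4 CPM in shMock with TGF-β1, and at 53.6 and 53.0 CPM in shMTHFD2 control, against 56.5 and 53.9 CPM in shMock control. Its log2 fold change between the lines was −0.26 ± 0.08 with TGF-β1 (adjusted p = 0.0464) and −0.05 ± 0.08 without it (adjusted p = 0.756). The SRF call lay close to the threshold. Whether calls of these 4 genes held under the alternatives was not worked out. Myocardin (MYOCD), the cofactor of smooth and cardiac muscle, was at 53.0 and 49.7 CPM in shMTHFD2 with TGF-β1, against 8.87 and 10.6 CPM in shMTHFD2 control, and at 61.5 and 50.1 CPM in shMock with TGF-β1, against 7.62 and 6.89 CPM in shMock control. Its rises were 2.40 ± 0.13 and 2.94 ± 0.14 on the log2 scale, in shMTHFD2 and shMock, and it did not pass between the lines (adjusted p = 0.557 with TGF-β1 and 0.0911 without it). MRTFA rose with TGF-β1 by 1.20 ± 0.10 in shMTHFD2 and 1.06 ± 0.10 in shMock, and MRTFB was higher in shMTHFD2 without TGF-β1 by 0.42 ± 0.10 (adjusted p = 0.0174).

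Counts of some genes may hold reads of an overlapping gene, and the use of strand is not given in the sources used here. Summed over the 8 libraries, genes overlapping the exons of MYH10 had 94.0% as many counts as MYH10 itself. The figure was 21.97% for MYL6, 13.5% for VCL, 11.96% for ACTA2, 11.9% for TAGLN and 9.53% for TLN1. MYL6 and TLN1 each overlap a gene on the same strand (MYL6B and MIR6852), which strand use would not separate. Genes overlapping MYH11 had 3069 counts, beside 14 of its own. ACTA2 had 1703 to 2255 counts per control library and 16584 to 24668 per TGF-β1 library. Its share may thus be higher at rest, and shares per state were not worked out. Named pseudogenes held at most 1.91% of their parent's counts, for TPM3. The actins, the tropomyosins and the MYL12 pair also have close relatives among which reads could have been split.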

How the data were processed

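The deposited table holds whole-number counts per Ensembl gene for 8 libraries, although its name speaks of FPKM; no value was fractional, and 0 columns were left unmapped. Per the submitters' processing notes, STAR 2.7.1a, DESeq2 1.32.0 and GRCh38 were used, with the counter, annotation, strand setting and filters not given in the sources used here. Symbols were matched for 60437 IDs and positions from GENCODE 29 for 58420.

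The filter kept 13493 genes whose mean over the libraries reached 1 CPM. edgeR 4.0.16 in R 4.3.3 fitted 1 mean per group to all 8 libraries, with TMM factors of 0.914 to 1.07, 4 residual degrees of freedom and a biological coefficient of variation of 8.79%. P-values were adjusted by Benjamini-Hochberg across those genes and called below 0.05. SE is approximate, the size of the log2 fold change over the square root of F. Levels per kilobase use the APPRIS principal transcript, and log2 ratios within libraries add 0.5 to each count. A count of 3 was taken as the floor. The 39 genes, their roles and the pathway lists were chosen with earlier results of these data known. All 39 were to be described, and in each other list the called gene with the largest change per direction was to be named. The code was tested on simulated data. Alternatives were other scaling factors, filters, samples and thresholds, GC and length offsets, a replicate block, limma 3.58.1 (voom), DESeq2 1.42.0 and leaving out each library. The values of 1 further gene list are not reported here.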

Additional observations from a re-analysis of the deposited data

Results flagged for a closer look

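Within-library ratios of ACTA2 to the cytoplasmic actins moved in opposite directions between the lines at the 2 states, which is why they are listed here. For ACTA2 over ACTB the log2 difference of shMTHFD2 from shMock was −0.32 with TGF-β1 and 0.38 without it, so the differences themselves differed by −0.70. For ACTA2 over ACTG1 they were −0.51 and 0.28, a gap of −0.79. Both shMTHFD2 libraries lay below both shMock libraries with TGF-β1 and above them without it, for each ratio. By gene, the log2 fold changes of shMTHFD2 over shMock with and without TGF-β1 were −0.60 and −0.18 for ACTA2. They were −0.28 and −0.55 for ACTB and −0.10 and −0.45 for ACTG1. Both ratios share ACTA2, so they are not separate observations. The gap between the states was not tested for the ratios. Each gene's own interaction did not pass in edgeR (adjusted p = 0.159 for ACTA2, 0.401 for ACTB and 0.278 for ACTG1).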

How the results depend on the processing

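No direction of a called contractile gene turned round under any alternative run: of the fold changes of the 37 genes and MTHFD2 over all alternatives, 3553 stayed on their side of the threshold, 127 called ones no longer passed and 81 others newly passed. Genes passing between the lines with TGF-β1 (25) numbered 18 with library totals, 30 with GC and length offsets, 30 with DESeq2, 17 at an adjusted p under 0.01, and 16 to 26 when 1 library was left out; without TGF-β1 (23) they numbered 19, 27, 25, 18 and 14 to 26. For the TGF-β1 responses (28 in shMTHFD2, 30 in shMock) leaving out 1 library gave 26 to 30 and 28 to 31. For the interaction (0) the count was 2 without a filter, 2 with DESeq2 and 0 to 1 when 1 library was left out; the cause was not tested. Deviations of equally numbered libraries correlated at −0.0203 to 0.0687. That showed no strong shift shared by replicate number, and cannot tell whether those libraries shared a culture or day. With a replicate block 24, 22, 28, 30 and 0 genes passed in the 5 comparisons (lines with and without TGF-β1, TGF-β1 in shMTHFD2 and shMock, interaction), and 29 and 27 between the lines with GC offsets too. Over all tested genes, library totals split the calls into 1338 higher and 717 lower between the lines with TGF-β1, against 652 and 1110 by TMM, and into 755 and 740 without it, against 438 and 1105; for TGF-β1 they gave 1222 and 2455 in shMTHFD2, against 1725 and 1489, and 1570 and 3932 in shMock, against 2333 and 2443. Leaving out 1 library brought all calls between the lines down to as few as 841 with TGF-β1, against 1762, and 585 without it, against 1543, and the interaction to between 3 and 192, against 12; it was 321 without a filter and 105 with DESeq2.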
